A study of Homo sapiens with 6 samples.

Results

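The genes described here are 34 components of the NF-kB system: its subunits, its inhibitors, the kinases and adaptors that switch it on, and the proteins that it induces or that switch it off. They were taken by name from the authors' expression table, which lists 26255 gene symbols, and all 34 were found. The cells were MDA-MB-231, a mesenchymal line from a human breast tumour, infected with a lentivirus that carried either a control hairpin RNA (shNT) or a hairpin against GPR81, the lactate receptor encoded by HCAR1 (shGPR81), and selected with puromycin. Each group had 3 libraries, and the sources used here do not name the hairpin of the sequenced shGPR81 cells, the number of clones in each line or whether the libraries of a group came from separate cultures, so the p-values below measure the spread between these libraries, which may be technical.

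NF-kB is a family of dimeric transcription factors that are held in the cytoplasm by IkB proteins. Receptors for TNF, IL-1 and other ligands recruit TRAF and cIAP proteins, which activate a kinase complex of CHUK (IKKα), IKBKB (IKKβ) and the scaffold IKBKG (NEMO), and this complex marks IkB for degradation. A second, slower branch runs through the kinase MAP3K14 (NIK) and the processing of NFKB2. MDA-MB-231 cells are known for constitutive NF-kB activity. The activity of the pathway lies in protein modification and nuclear entry, which mRNA levels do not measure.

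The values are FPKM, which is reads scaled to transcript length and library size. HCAR1 was at 0.968, 1.02 and 1.36 FPKM in shNT and at 0.978, 0.891 and 0.396 FPKM in shGPR81. On the log2 scale this was -0.57 with a standard error (SE) of 0.31 and a limma adjusted p of 0.380, so the targeted gene itself did not pass the test and its groups overlapped. The difference was -0.22 without shGPR81 replicate 3 and reached -0.78 without shGPR81 replicate 1. These levels stand for 129 reads in shNT and 92 in shGPR81, a depth-corrected ratio of 0.677 with a 95% Clopper-Pearson interval of 0.513 to 0.892 that covers counting error and not the spread between libraries. By RT-qPCR and western blotting, which are not part of these data, the paper reports a significant reduction of GPR81 in its shGPR81 lines. Most markers of the cell line were as its type is known for. Vimentin (VIM) had a mean of 3551 FPKM in shNT and of 4135 FPKM in shGPR81. CD44, CAV1, AXL, MSN and FOSL1, also known from this line, had group means of 153 to 431 FPKM. Of these, MSN and FOSL1 were higher in shGPR81 (limma adjusted p of 0.0378 and 0.0436), and CD44 was lower (0.0566). The genes of the oestrogen receptor (ESR1), progesterone receptor (PGR) and E-cadherin (CDH1) were listed at 0 in all 6 libraries. Of the other luminal genes, which this line should lack, GATA3 had means of 1.21 and 1.37 FPKM, FOXA1 of 1.58 and 1.71 FPKM, and ERBB3 rose from 1.43 to 2.69 FPKM (0.85 on the log2 scale, limma adjusted p of 0.0352). The leukocyte markers CD3E and ITGAM were at 0, whereas CD68 had means of 88.9 FPKM in shNT and 118 FPKM in shGPR81, and CD14 of 3.38 and 1.49 FPKM. Of the endothelial markers, CDH5 was at 0 and KDR had means of 0.750 and 0.860 FPKM. Depth is not given with FPKM. Low genes whose values are whole multiples of 1 step gave relative depths of 1.0 to 1.07 over the 6 libraries.

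As a set, the NF-kB genes hardly differed between the groups. Of the 34, 31 passed a filter of 0.1 FPKM in at least 3 libraries and were tested. None of them combined a limma adjusted p below 0.05 with a change of more than 1.5-fold (0 lower and 0 higher), and none passed the fold limit alone, as 8.15% of all tested genes did, where 1.59% of all 14349 tested genes were lower and 0.955% higher by these thresholds (2.54% together). Without the threshold on the fold change, BCL3 and TNFAIP2 had an adjusted p under 0.05 and were lower, 2 of 31 against 3.07% of all tested genes, and 0 of 31 were higher, against 2.06% (5.13% in either direction). At an unadjusted p under 0.05 there were 3 genes, these 2 and IKBKB, where 19.5% of all tested genes passed. The median log2 fold change of the 31 genes was 0.03, beside 0.01 over all tested genes, with 14 genes below 0 and 17 above. For 29 of the 31 the 95% interval of the difference lay within a 1.5-fold change in either direction, as it did for 69.8% of all tested genes; the exceptions were BCL3 and NFKBIZ.

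**Figure D1:**
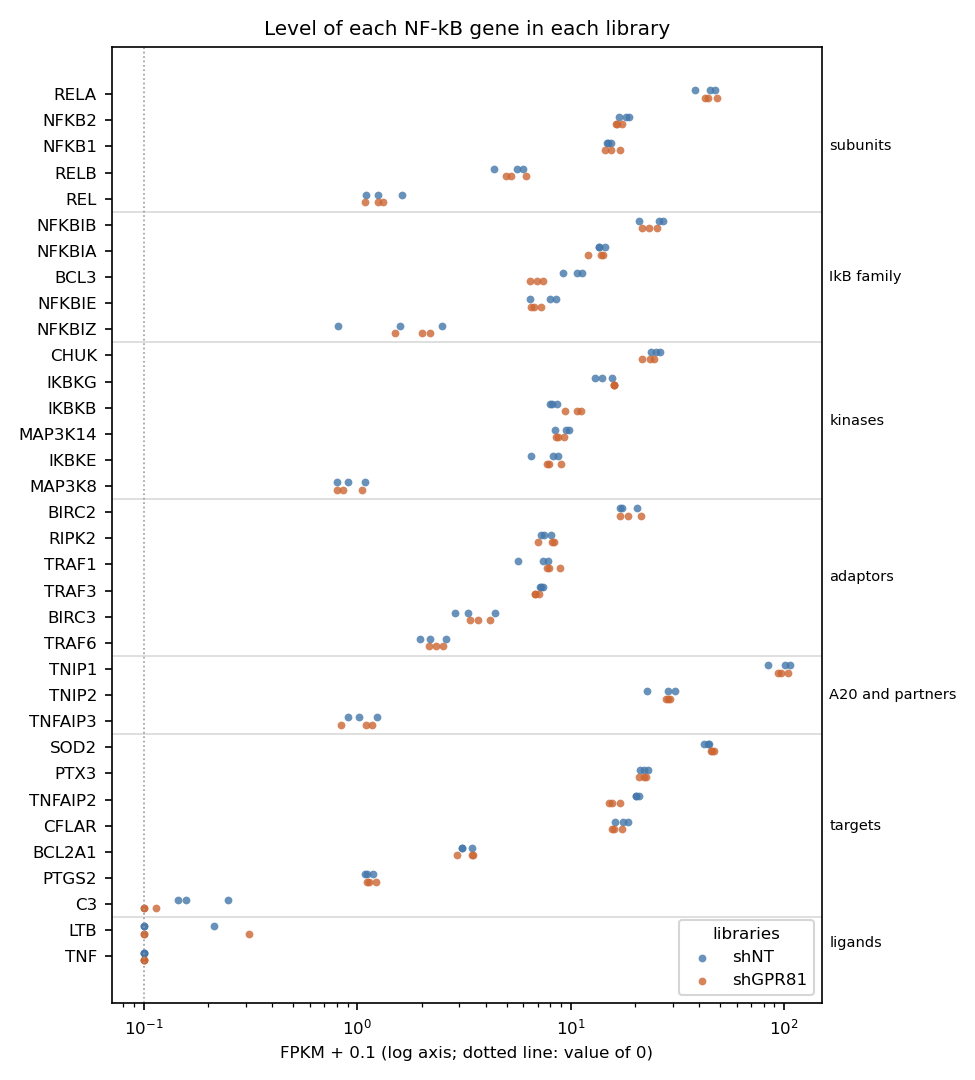
Level of each of the 34 NF-kB genes (FPKM + 0.1, log axis) in the 3 shNT and 3 shGPR81 libraries, 1 point per library, ordered by role and level. The points of both groups lie together for most genes, RELA is the highest of the subunits, and TNF, LTB and C3 sit at or near the line that marks a value of 0.

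Most of the system was transcribed at moderate levels. Over the 6 libraries, 14 of the genes had a mean of at least 10 FPKM, 15 lay between 1 and 10 FPKM, 2 between 0.1 and 1 FPKM and 3 below 0.1 FPKM. The highest was TNIP1, which encodes a partner of the deubiquitinase A20, with 97.3 FPKM on average, followed by SOD2, the mitochondrial superoxide dismutase, with 44.7 FPKM. A20 itself, the gene TNFAIP3, was near the low end with 0.943 FPKM.

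Many NF-kB components are themselves targets of NF-kB, and their promoters carry its binding site, the κB consensus decamer. RefSeq promoter windows of 250 bases before to 50 bases after the start site were given for 29 of the 34 genes, and 12 of these held the decamer on either strand, beside 1562 of all 27305 promoters (5.72%). The list consists largely of known targets, so this share describes the list. The windows below are shown because they span the subunits, inhibitors, kinases, adaptors, brakes and targets, with BCL3 first as the gene with the largest difference between groups among those with an adjusted p under 0.05. Capitals mark the decamer, the sequences run 5′ to 3′ on the strand of the gene, and the coordinates are GRCh37, found by matching the RefSeq sequence (GRCh38.p14) to that genome. In BCL3, NFKBIA, MAP3K8 and TNFAIP3 the decamer lies on the opposite strand, so the capitals show its reverse complement.
BCL3, chr19:45251957-45251986, plus strand: ccggctgcagGGGAAGTCCCggcgcccggc
NFKB1, chr4:103422457-103422486, plus strand: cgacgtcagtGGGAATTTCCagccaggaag
REL, chr2:61108652-61108681, plus strand: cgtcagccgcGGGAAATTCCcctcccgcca
NFKBIA, chr14:35874017-35874046, minus strand: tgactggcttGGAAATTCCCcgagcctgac
MAP3K8, chr10:30722911-30722940, plus strand: ggggagacgcGGAATTTCCCagcgcggggg
TRAF3, chr14:103243743-103243772, plus strand: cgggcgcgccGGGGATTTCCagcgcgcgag
TNFAIP3, chr6:138188319-138188348, plus strand: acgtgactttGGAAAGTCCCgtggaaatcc
CFLAR, chr2:201983332-201983361, plus strand: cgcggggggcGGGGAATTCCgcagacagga

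The decamer of BCL3 lay at positions 3 to 12 downstream of the RefSeq start site and that of NFKB1 at positions -49 to -40 before it. In REL the match on the printed strand overlaps a match on the opposite strand that is shifted by 1 base, and TNFAIP3 holds a second decamer from -55 to -46. The promoter of TNFAIP2 held no match in this window. The 11 tested genes with the decamer had log2 fold changes of -0.58 to 0.35 with a median of -0.04, and the 16 without it had -0.36 to 0.25 with a median of 0.05, with 1 gene of adjusted p under 0.05 in each set.

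The 5 subunits form the active dimers. RELA (p65), which carries a transactivation domain and is the main partner of the canonical pathway, was at 37.9, 44.8 and 47.4 FPKM in shNT and at 42.6, 43.8 and 48.2 FPKM in shGPR81. The ranges of both groups overlapped, and the log2 fold change was 0.05 with a 95% interval of -0.16 to 0.27. NFKB1 (p105, the precursor of p50) was at 14.7, 14.8 and 15.3 FPKM in shNT and at 15.4, 14.4 and 16.9 FPKM in shGPR81, a log2 fold change of 0.06 (95% interval -0.11 to 0.23). NFKB2 (p100, the precursor of p52 in the slower branch) was at 16.7, 18.6 and 18.0 FPKM and at 16.5, 16.2 and 17.4 FPKM, which gave -0.09 (95% interval -0.24 to 0.06). RELB, the partner of p52, was at 4.28, 5.47 and 5.85 FPKM in shNT and at 4.88, 5.14 and 6.06 FPKM in shGPR81, and REL, known from lymphocytes, was at 1.51, 1.15 and 1.001 FPKM and at 1.15, 1.22 and 0.983 FPKM. The groups overlapped for all 5 subunits, and adjusted p was between 0.511 and 0.894 (limma). As shares of the family, RELA made up 52.5% ± 1.87 (SD, n = 3) of the summed FPKM of the 5 subunits in shNT and 53.7% ± 0.684 in shGPR81, with NFKB2 at 21.6% ± 0.881 and 19.96% ± 0.546 and REL at 1.502% ± 0.454 and 1.35% ± 0.220.

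The inhibitors and IkB-like proteins held the largest difference among the 31 tested genes. BCL3, an unusual IkB protein that binds p50 and p52 homodimers in the nucleus and acts there as a coactivator or corepressor, was at 9.10, 10.5 and 11.2 FPKM in shNT and at 6.33, 7.28 and 6.83 FPKM in shGPR81. Every shGPR81 library was below every shNT library. BCL3, which spans 45250962 to 45263301 of chromosome 19 (GRCh37, plus strand), stood at -0.58 on the log2 scale (SE 0.10, limma adjusted p of 0.0168), a level of 0.668 times that of shNT with a 95% interval of 0.569 to 0.783. This lies just under the 1.5-fold threshold, and the exact permutation p (two-sided) was 0.1, the smallest that 3 against 3 libraries allow. BCL3 passed both thresholds without shNT replicate 1 (log2 fold change -0.67, adjusted p = 0.00588), and its adjusted p rose above 0.05 without shNT replicate 2 (0.0869), shGPR81 replicate 1 (0.0822), shGPR81 replicate 2 (0.0522) or shGPR81 replicate 3 (0.0638), with log2 fold changes of -0.67 to -0.52 over the 6 fits that left out 1 library.

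NFKBIA (IkBα), the inhibitor that NF-kB induces within its own feedback loop, was at 13.4, 14.3 and 13.4 FPKM in shNT and at 13.99, 11.9 and 13.8 FPKM in shGPR81, a log2 fold change of -0.06 (95% interval -0.24 to 0.13). NFKBIB (IkBβ) was at 20.9, 25.8 and 26.9 FPKM and at 21.5, 23.0 and 25.3 FPKM, and NFKBIE (IkBε) at 6.35, 7.87 and 8.39 FPKM and at 6.62, 6.38 and 7.19 FPKM. Both pairs of ranges overlapped, with log2 fold changes of -0.07 and -0.15 and adjusted p of 0.799 and 0.545 (limma). NFKBIZ (IkBζ), a nuclear IkB protein that is strongly induced by IL-1, was at 2.41, 1.48 and 0.712 FPKM in shNT and at 2.09, 1.92 and 1.40 FPKM in shGPR81. The shNT libraries alone spanned the whole range of the other group, and the interval of its log2 fold change, -0.55 to 1.24, was the widest of the 31.

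**Figure D2:**
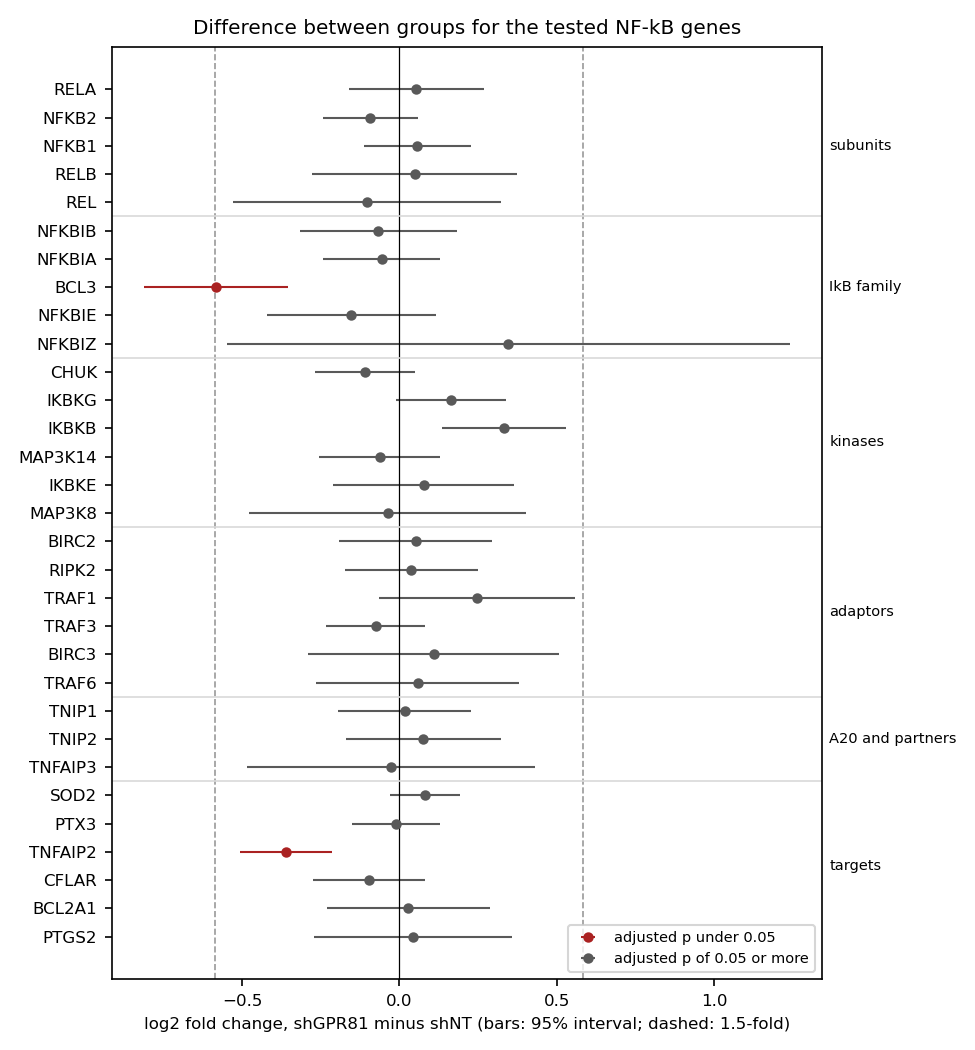
Log2 fold change (shGPR81 minus shNT, on log2(FPKM + 0.1)) of the 31 tested NF-kB genes with its 95% interval from limma, by role; dashed lines mark a 1.5-fold change. BCL3 at -0.58 and TNFAIP2 at -0.36 have an adjusted p under 0.05, IKBKB lies highest among the kinases at 0.33, and NFKBIZ has the widest interval.

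Among the kinases, the catalytic IKK subunits differed from the controls with opposite sign, and neither passed the test. IKBKB (IKKβ), the kinase of the canonical branch, was at 8.55, 8.03 and 7.93 FPKM in shNT and at 11.1, 10.6 and 9.30 FPKM in shGPR81. All 3 shGPR81 libraries were above the shNT libraries, yet the gene did not pass the test over all genes, at 0.33 on the log2 scale (SE 0.08, limma adjusted p of 0.0748, exact permutation p of 0.1). After a correction for GC content, chosen after the data were seen, its adjusted p was 0.0415, and over the fits that left out 1 library it was 0.0596 to 0.254. CHUK (IKKα), which also serves the slower branch, was at 26.0, 24.9 and 23.8 FPKM and at 23.4, 24.5 and 21.4 FPKM, a log2 difference of -0.11 (95% interval -0.27 to 0.05). The ratio of CHUK to IKBKB was 3.05 ± 0.0512 (SD, n = 3) in shNT and 2.24 ± 0.109 in shGPR81. This ratio was formed after the values were seen and is given without a test.

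IKBKG (NEMO), the scaffold of the complex, was at 12.9, 13.9 and 15.5 FPKM in shNT and 15.8 FPKM in each shGPR81 library (log2 fold change 0.16, adjusted p = 0.286 from limma). Its reads are shared with a near-identical pseudogene, so this level is uncertain. The IKK-related kinase IKBKE was at 6.43, 8.13 and 8.60 FPKM in shNT and at 8.93, 7.61 and 7.79 FPKM in shGPR81, and MAP3K14 (NIK), the kinase that drives the processing of NFKB2, was at 8.32, 9.71 and 9.36 FPKM and at 8.39, 8.59 and 9.19 FPKM. Neither stood apart, with log2 fold changes of 0.08 and -0.06. MAP3K8 (TPL2), which is released from p105 and leads to ERK, was low in both groups, at 0.706 to 0.982 FPKM and 0.6997 to 0.953 FPKM.

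**Figure D3:**
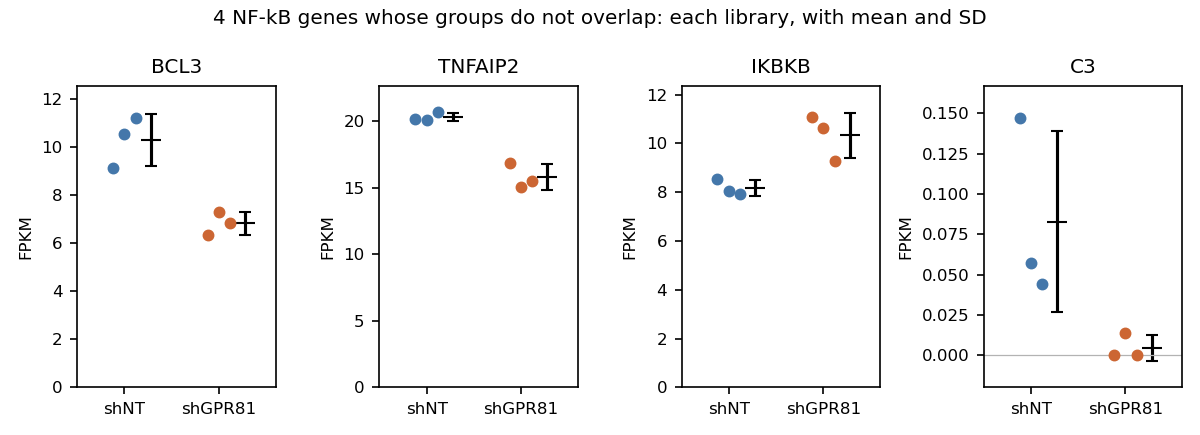
FPKM of BCL3, TNFAIP2, IKBKB and C3 in each library (points), with the mean and SD of the 3 libraries of a group. The groups do not overlap in any panel: BCL3 and TNFAIP2 are lower and IKBKB is higher in shGPR81, and C3 lies at no more than 0.147 FPKM in any library.

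The adaptors link receptors to the kinases. BIRC2 (cIAP1) was at 20.3, 17.3 and 16.9 FPKM in shNT and at 21.2, 18.5 and 16.9 FPKM in shGPR81, and its neighbour on chromosome 11, BIRC3 (cIAP2), at 4.32, 3.19 and 2.78 FPKM and at 4.10, 3.58 and 3.29 FPKM. These ubiquitin ligases thus overlapped between the groups, with log2 fold changes of 0.05 and 0.11. TRAF1, an adaptor that NF-kB itself induces, was at 5.54, 7.69 and 7.35 FPKM in shNT and at 7.62, 7.81 and 8.84 FPKM in shGPR81 (log2 fold change 0.25, 95% interval -0.07 to 0.56, adjusted p = 0.380 from limma). TRAF3, which holds NIK at a low level, had groups without overlap that differed little, at 7.05 to 7.28 FPKM in shNT and 6.68 to 7.01 FPKM in shGPR81, a log2 fold change of -0.07. TRAF6, the ligase of the IL-1 and Toll-like receptor branch, was at 1.88 to 2.51 FPKM and 2.07 to 2.43 FPKM, and RIPK2, the kinase downstream of the NOD receptors, at 7.17 to 7.96 FPKM and 6.92 to 8.21 FPKM. Adjusted p was between 0.380 and 0.874 for these 6 genes (limma).

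The proteins that switch the pathway off did not differ beyond the spread of the libraries. A20 (TNFAIP3), a deubiquitinase induced by NF-kB, was at 1.13, 0.915 and 0.808 FPKM in shNT and at 0.740, 0.994 and 1.07 FPKM in shGPR81. These values stand for 70, 58 and 50 reads and for 49, 65 and 70 reads, or 0.982 times the shNT level per unit of depth (95% Clopper-Pearson interval 0.795 to 1.21, for counting error only). The A20-binding proteins TNIP1, at 84.3, 101 and 106 FPKM and at 93.0, 96.2 and 104 FPKM, and TNIP2, at 22.7, 28.4 and 30.5 FPKM and at 27.9, 29.1 and 28.5 FPKM, had log2 fold changes of 0.02 and 0.08.

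TNFAIP2 was the other gene with an adjusted p under 0.05. It encodes M-Sec, a TNF-inducible protein that takes part in membrane protrusions and tunnelling nanotubes. It was at 20.2, 20.1 and 20.7 FPKM in shNT and at 16.9, 15.1 and 15.5 FPKM in shGPR81, so the groups lay well apart while each was narrow. The difference was -0.36 on the log2 scale (SE 0.06, limma adjusted p of 0.0183), a level of 0.779 times that of shNT with a 95% interval of 0.704 to 0.862, and the exact two-sided permutation p was 0.1. TNFAIP2 spans 103587813 to 103603776 of chromosome 14 (GRCh37, plus strand). Its adjusted p was above 0.05 without shNT replicate 2 (0.0825), shNT replicate 3 (0.0553), shGPR81 replicate 2 (0.0926) or shGPR81 replicate 3 (0.0804). In 3 of these 4 fits, all but the one without shNT replicate 3, BCL3 was above 0.05 as well.

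The other targets that were tested stayed close to their control level. SOD2 was at 44.3, 44.1 and 41.9 FPKM in shNT and at 46.8, 45.3 and 45.8 FPKM in shGPR81, groups without overlap that differed by a log2 fold change of 0.08 (95% interval -0.03 to 0.19). PTX3, a secreted pattern recognition protein, was at 21.99, 20.9 and 22.9 FPKM and at 21.9, 20.9 and 22.5 FPKM, the smallest difference among the 31 tested genes (log2 fold change -0.01, 95% interval -0.15 to 0.13). CFLAR (cFLIP), which blocks caspase-8, was at 16.0 to 18.5 FPKM and 15.5 to 17.3 FPKM, and BCL2A1, a BCL2 relative that protects from apoptosis, at 2.99 to 3.33 FPKM and 2.82 to 3.39 FPKM. PTGS2 (COX-2), the inducible cyclooxygenase, was low in all libraries, with 58, 61 and 64 reads in shNT and 64, 70 and 65 reads in shGPR81, a ratio of 1.03 (95% Clopper-Pearson interval 0.841 to 1.27, for counting error only).

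The remaining 3 genes did not pass the filter. C3, the central complement component, was at 0.147, 0.0574 and 0.0441 FPKM in shNT and at 0, 0.0139 and 0 FPKM in shGPR81. These are 10, 4 and 3 reads against 0, 1 and 0 reads, a ratio of 0.0559 with a 95% Clopper-Pearson interval of 0.00134 to 0.357. That interval covers counting error only and not the spread between libraries. With no filter on low values the adjusted p of C3 was 0.165 (limma). Of the ligands, TNF was listed at 0 in all 6 libraries, and LTB (lymphotoxin β) was listed at 0.113 FPKM, or 1 read, in shNT replicate 3, at 0.212 FPKM, or 2 reads, in shGPR81 replicate 1 and at 0 in the others. No difference could be detected for these ligands at this depth.

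In all, 6 of the 31 tested genes had groups without overlap, 3 lower (BCL3, TNFAIP2 and TRAF3) and 3 higher (IKBKB, IKBKG and SOD2), where 25.6% of all tested genes did. The spread within the groups was not even over the libraries. Of the shNT libraries, replicate 1 was the lowest or highest of its group for 26 of the 31 genes, replicate 2 for 11 and replicate 3 for 25. Over all tested genes, the median absolute gap to the rest of the group was 0.182, 0.0934 and 0.151 on the log2 scale in shNT replicates 1, 2 and 3. Across all genes with a mean of 1 FPKM or more, the gap had a Spearman correlation with transcript GC content of -0.68, 0.41 and 0.58 in these libraries. In shGPR81 it was -0.37 to 0.43. Replicates 1 and 3 thus lay at opposite ends. The gaps of a group depend on each other, and the correlations describe genes that are not independent. In replicate 1 all 13 genes whose longest transcript has at least 55% GC were below the mean of the other shNT libraries, with a median gap of -0.29 on the log2 scale, while 12 of the 18 genes with less GC were above it, with a median of 0.10. The limit of 55% was chosen after the values were seen. RELA, RELB, TNIP1, TNIP2 and TRAF1 were among the lower genes and REL, NFKBIZ and BIRC3 among the higher ones. With the GC correction the log2 fold changes were -0.61 for BCL3 (adjusted p = 0.00447) and -0.37 for TNFAIP2 (adjusted p = 0.0315, limma).

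**Figure D4:**
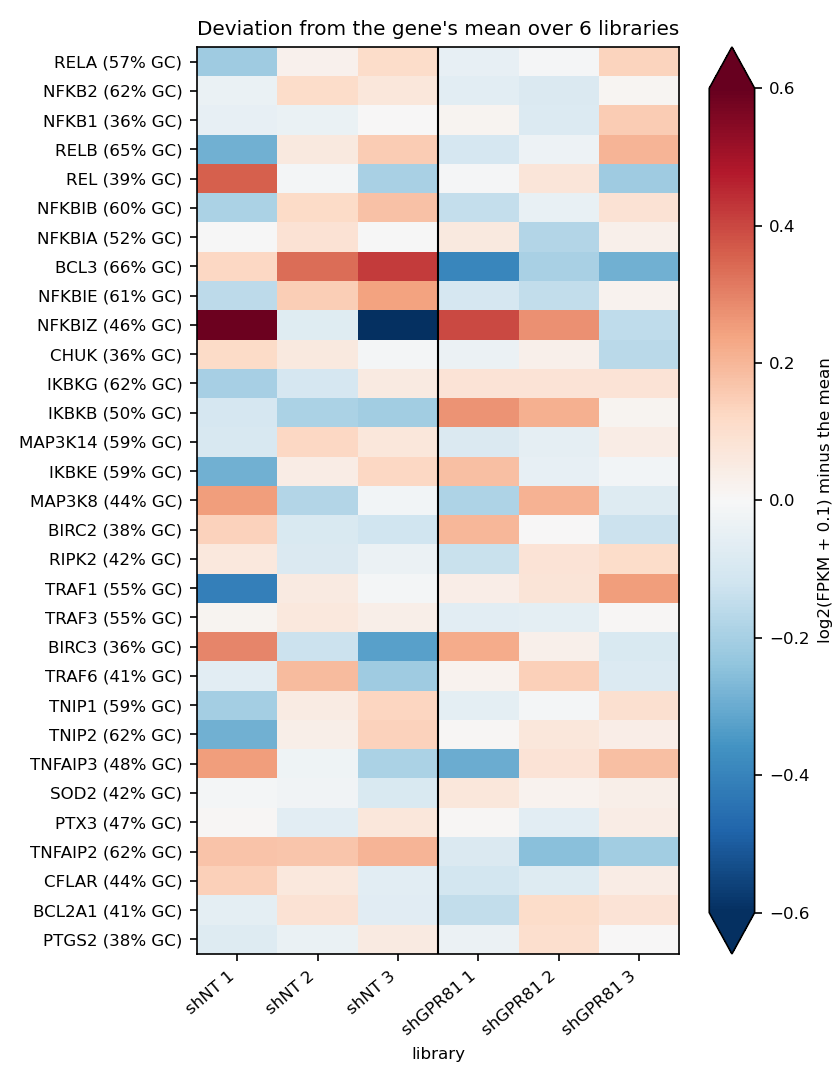
Deviation of log2(FPKM + 0.1) from the mean of the 6 libraries for each of the 31 tested NF-kB genes (rows, with the GC content of the longest transcript) in each library (columns; black line between shNT and shGPR81). BCL3 and TNFAIP2 change colour at the black line, whereas RELB, TRAF1, TNIP2 and NFKBIZ have their strongest colours in single shNT libraries.

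Further genes of the pathway were read from 4 lists of 116 genes, of which 101 were tested. Among them 5 were lower and 2 higher past both thresholds, with a median log2 fold change of -0.02. Of all tested genes, 1.59% were lower and 0.955% higher by these thresholds. The lists were drawn up with earlier results of these data known, so the counts describe the lists. The 5 lower genes include IL1R1 and CCL2, which passed the filter only through the shNT libraries. At the receptors, IL1R1, the signalling receptor for IL-1, fell from 0.897, 0.615 and 0.512 FPKM in shNT to 0.0426, 0.0431 and 0 FPKM in shGPR81 (-2.58 on the log2 scale, SE 0.30, limma adjusted p of 0.00376). The size of this difference depends on the pseudocount, with -0.70 for 1 FPKM and -4.46 for 0.01 FPKM, and its adjusted p stayed under 0.05 in all 16 alternatives. Every shGPR81 value of IL1R1 was under the filter limit of 0.1 FPKM. The gene thus entered the test only through the shNT libraries, where it is high, which limits what its p-value can show. CD40, a receptor of the TNF family that feeds the slower branch, fell from 21.6, 22.8 and 21.9 FPKM to 13.9, 14.3 and 15.3 FPKM (log2 fold change -0.61, SE 0.06, adjusted p = 0.00219). CD40 lies on chromosome 20, and once the genes of every chromosome were centred per library CD40 stood at -0.20 on the log2 scale (limma adjusted p of 0.112), while BCL3 stood at -0.63 (0.00658). The other 32 tested receptors and adaptors did not pass both thresholds. RBCK1 (HOIL-1), a subunit of the linear ubiquitin ligase that acts on NEMO, came close, as it fell from 20.3, 24.3 and 24.6 FPKM to 15.4 FPKM in each shGPR81 library (-0.58 on the log2 scale, SE 0.08, limma adjusted p of 0.00880). Of the 17 tested further inhibitors 0 passed both thresholds, beside 2.54% of all tested genes. The ubiquitin ligase ITCH, a partner of A20, had an adjusted p under 0.05 alone, at 21.6, 19.2 and 17.1 FPKM in shNT and 13.004, 15.3 and 13.3 FPKM in shGPR81 (-0.48 on the log2 scale, limma adjusted p of 0.0428). RBCK1 and ITCH also lie on chromosome 20, and whether this position bears on their levels was not tested.

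Further targets changed in both directions. The adhesion molecule ICAM1 fell from 5.01, 5.33 and 5.62 FPKM in shNT to 1.80, 2.10 and 2.21 FPKM in shGPR81 (log2 fold change -1.35, SE 0.11), whereas SERPINB2, an inhibitor of plasminogen activators, rose from 4.18, 4.24 and 3.32 FPKM to 8.60, 8.83 and 8.18 FPKM (log2 fold change 1.11, SE 0.11). G0S2, an inhibitor of adipose triglyceride lipase, rose from 38.6, 50.2 and 48.0 FPKM to 203.9, 202.7 and 235.5 FPKM (log2 fold change 2.23, SE 0.11). These were the 3 of 30 tested genes past both thresholds, beside 2.54% of all tested genes. By adjusted p alone, LAMB3 was also higher (log2 fold change 0.50, limma adjusted p of 0.0183). TAP1 (-0.34, 0.0111), PLK2 (-0.22, 0.0297) and SDC4 (-0.29, 0.0476) were lower in the same way. SDC4 lies on chromosome 20, like CD40, RBCK1 and ITCH, and whether this position bears on its level was not tested. Of 20 tested cytokine targets, CSF2 (GM-CSF) fell from 8.67, 8.21 and 8.53 FPKM to 2.93, 2.85 and 2.97 FPKM (log2 fold change -1.51, SE 0.08). CSF1 was higher by adjusted p alone (log2 fold change 0.36, limma adjusted p of 0.0327). CCL2, a monocyte chemoattractant, went from 6, 1 and 6 reads to 0 in all 3 shGPR81 libraries. The depth-corrected ratio was 0, with a 95% Clopper-Pearson interval of 0 to 0.312 for counting error only. With a floor of 3 reads set for the shGPR81 group the fall was 4.56-fold, which leaves out the counting error of the shNT reads. The limma adjusted p of CCL2, 0.0428, rose to between 0.0795 and 0.145 without any library other than shNT replicate 2. Like IL1R1, CCL2 entered the test only through the shNT libraries, where it is high, which limits what its p-value can show. RNA of whole cultures does not tell a change in every cell from a change in the share of cells that express a gene.

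**Figure D5:**
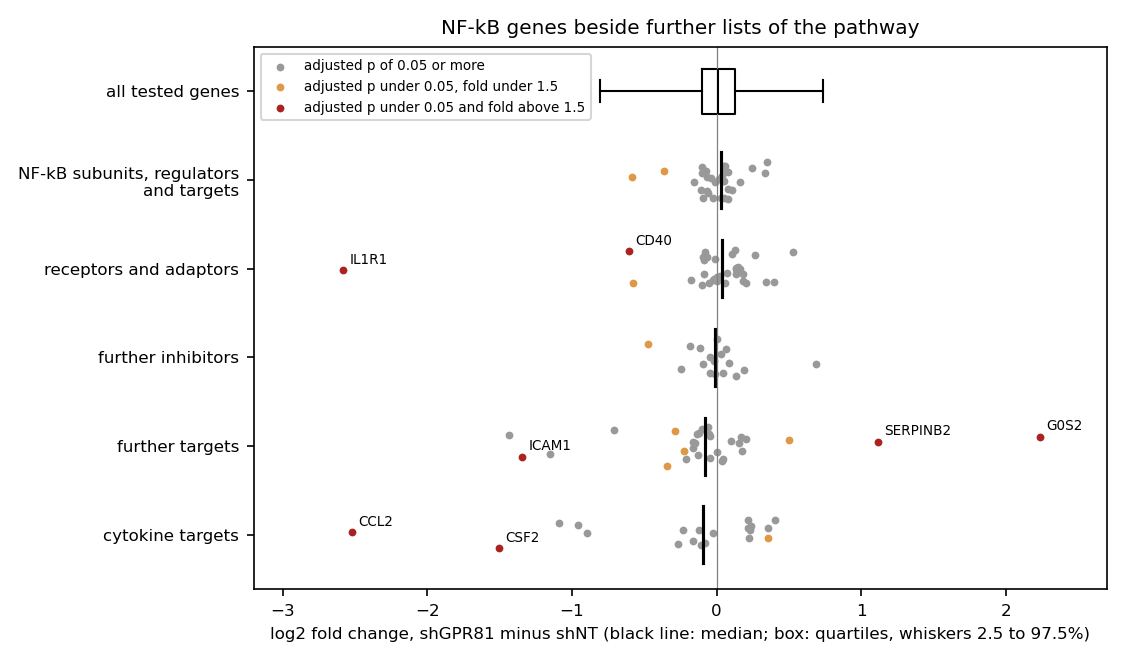
Log2 fold change (shGPR81 minus shNT) of the 31 tested NF-kB genes and of the tested genes of 4 further lists, 1 point per gene, with the median of each list as a black line, beside a box of all tested genes (quartiles, whiskers over the central 95% of genes). The 31 genes lie between -0.58 and 0.35, while single receptors, targets and cytokines reach from -2.58 to 2.23.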

How the data were processed

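The authors deposited FPKM, 1 value per gene symbol and library. Per the paper, single-end reads of stranded mRNA libraries were mapped to the human genome (hg19); the submitters' processing notes list TopHat2 2.0.13, Bowtie2 2.2.3, SAMtools 0.1.19 and Cuffnorm 2.2.1, and name a mouse build. The symbols are human, so the build of the paper was used. The annotation is not given in the sources used here.

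Values were compared as log2(FPKM + 0.1), so fold changes of low genes are understated, with limma 3.58.1 (lmFit, eBayes with trend) under R 4.3.3 over the 14349 genes that reached 0.1 FPKM in 3 or more libraries, with Benjamini-Hochberg adjustment over all of them and no block. Thresholds were those of the study (adjusted p of 0.05, fold of 1.5). An exact permutation test (two-sided) was added gene by gene. Same-numbered shNT and shGPR81 libraries deviated together with correlations of 0.120, 0.022 and 0.0058 over genes, and those of unlike number with -0.103 to 0.083. No pairing is stated in the sources used here. These small correlations cannot exclude one, since deviations within a group depend on each other.

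The genes, their roles and the further lists were chosen with earlier results of these data known. The text names all 34 genes and the listed genes past both thresholds. RBCK1, ITCH, LAMB3, TAP1, PLK2, SDC4, CSF1 and the promoter windows other than that of BCL3 were added after the values were seen. Reads behind low values were recovered where the 6 FPKM, after removing library scale, were whole multiples of 1 step within a tolerance of 0.0001, in 3584 of 15931 genes and 4 of the 34. Positions are those of GENCODE 44 on GRCh37.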

Additional observations from a re-analysis of the deposited data

How the results depend on the processing

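The median log2 fold change of the 31 genes stayed between -0.0075 and 0.046 over the 16 alternatives that give one, and 0 of them were called higher under all 18. The count called lower, 0, was 1 with a pseudocount of 0.01, median centring, chromosome centring, the GC correction (chosen after the data were seen) and without shNT replicate 1, in each case BCL3, 0 to 1 over the fits that left out 1 library, and 2 by adjusted p alone. BCL3 and TNFAIP2 each had an adjusted p under 0.05 in 12 of 17 alternatives. The treat test of limma, run against a 1.5-fold change, gave both an adjusted p of 1.

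Over all genes, 228 lower and 137 higher genes became 142 and 75 with a pseudocount of 1, 46 and 9 with treat and 440 and 296 by adjusted p alone, and 121 to 256 and 65 to 152 without 1 library. Of the further lists, 5 lower genes became 3 with a pseudocount of 1, a filter of 1 FPKM, treat or chromosome centring and 10 by adjusted p alone, 3 to 5 without 1 library, and 2 higher genes became 1 with treat and 4 by adjusted p alone.

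The replicate numbers as a block gave 0 of the 31 genes called lower and 0 higher, with limma adjusted p of 0.0182 for BCL3 and 0.0389 for TNFAIP2, and ended the call of CCL2 (0.0541). The shNT and shGPR81 libraries share a number but no stated pairing, and not every library correlated best with its own number.

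Genes that passed no test changed sign without 1 library. The log2 fold changes over these 6 fits were -0.22 to 0.052 for REL, -0.040 to 0.12 for RELA, -0.083 to 0.14 for RELB, -0.0052 to 0.11 for NFKB1, -0.13 to 0.12 for TNFAIP3, -0.082 to 0.084 for TNIP1, -0.049 to 0.16 for TNIP2, -0.047 to 0.16 for IKBKE, -0.15 to 0.077 for MAP3K8, -0.18 to 0.0037 for NFKBIB, -0.10 to 0.016 for NFKBIA, -0.084 to 0.73 for NFKBIZ, -0.036 to 0.13 for BIRC2, -0.027 to 0.28 for BIRC3, -0.034 to 0.17 for TRAF6, -0.0073 to 0.11 for RIPK2, -0.018 to 0.11 for BCL2A1 and -0.043 to 0.021 for PTX3. Quantile normalization put TNIP1 at -0.0039 and chromosome centring put PTX3 at 0.018. The depth is not given with FPKM, and C3, LTB and CCL2 rest on 17 or fewer reads in a group.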
